A study of Piaractus mesopotamicus and Piaractus mesopotamicus x Colossoma macropomum and Colossoma macropomum with 15 samples.

Results

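The miRNAs of fast skeletal muscle were compared between the hybrid tambacu (TC) and tambaqui (TQ), with 5 fish of each genotype among the 15 fish sequenced. Of the 595 miRNA loci counted, with 369 mature names, 196 loci with 149 mature names had a mean normalized count of at least 10 over these 10 fish and were compared. A locus is the place of one mature miRNA on one precursor, and a name with several copies is described once, by the copy with the highest total count. TQ is the species Colossoma macropomum, and TC is a cross between it and Piaractus mesopotamicus (pacu). All were juveniles, and no treatment, transgene or deletion is stated for them. They were kept in aerated tanks under a natural photoperiod, and whether the genotypes shared tanks is not stated. The muscle was taken above the body axis, beside the dorsal fin. Each library held small RNA of 1 fish. Fish are named by genotype and number, and values of single fish are always given in the order TC3, TC4, TC5, TC6 and TC8, then TQ1, TQ2, TQ3, TQ6 and TQ8.

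A miRNA is cut as a short duplex from a hairpin precursor, and one strand, from the 5′ arm or the 3′ arm, is usually loaded into an Argonaute protein while the other is mostly degraded. The loaded strand finds messenger RNAs by its seed, the short stretch near its 5′ end, so that miRNAs with the same seed can share targets. In skeletal muscle the best known are miR-1, miR-133 and miR-206, which act in the differentiation of muscle cells, and miR-499, which in mammals is made from an intron of a slow myosin gene.

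The sequences that the differences between TC and TQ turn on are printed first, to make the seed groups visible. They are the Danio rerio mature sequences of miRBase 22, read from the precursors in the supplementary files of the study, since the reads of these fish were counted against that reference. Capitals mark the seed, bases 2 to 8, and T stands for U. The first set had at least 1 member higher in TC.
miR-499-5p: tTAAGACTtgcagtgatgttta
miR-144-3p: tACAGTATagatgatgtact
miR-122: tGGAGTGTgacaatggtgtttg
miR-192: aTGACCTAtgaattgacagcc
miR-27b-3p: tTCACAGTggctaagttctgca
miR-27d: tTCACAGTggctaagttcttca
miR-27c-3p: tTCACAGTggttaagttctgc
miR-27a-3p: tTCACAGTggctaagttccgct
miR-27e: tTCACAGTggctaagttcagtg
miR-363-3p: aATTGCACggtatccatctgta
miR-92a-3p: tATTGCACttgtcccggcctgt
The 5 miR-27 names have one seed and differ in a few bases after it, and miR-363-3p has the seed of miR-92a-3p.

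The second set had members lower in TC. The 2 miR-19 names share a seed, and miR-221-3p shares its seed with miR-222a-3p.
miR-19a-3p: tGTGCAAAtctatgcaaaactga
miR-19d-3p: tGTGCAAAcccatgcaaaactga
miR-17a-5p: cAAAGTGCttacagtgcaggta
miR-20a-5p: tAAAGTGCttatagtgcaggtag
miR-18a: tAAGGTGCatctagtgcagata
miR-221-3p: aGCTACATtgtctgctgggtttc
miR-222a-3p: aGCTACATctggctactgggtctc
miR-155: tTAATGCTaatcgtgatagggg
miR-223: tGTCAGTTtgtcaaatacccc
miR-29a: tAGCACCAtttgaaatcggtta
The third set shows both arms of precursors whose arm ratio differed between TC and TQ.
miR-221-5p: aCCTGGCAtacaatgtagatttctgt
miR-140-5p: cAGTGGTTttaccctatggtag
miR-140-3p: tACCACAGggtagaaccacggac
miR-727-5p: tCAGTCTTcaattcctcccagc
miR-727-3p: gTTGAGGCgagttgaagactta

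Levels are given in CPM, the count relative to the library size after TMM scaling, which assumes that most miRNAs do not change. The library size sums all copies of a name, many with the same counts, so CPM is lower than with 1 copy per name. Mean totals were 4560130 counts in TC and 2994120 in TQ with all copies. With the highest copy of each name alone they were 2156500 and 1408210. Total counts were 2422820 to 5669084 in TC and 2448658 to 4143529 in TQ, and a count of 0 allowed up to 0.525 to 1.33 CPM, for counting error only. The mean total was 1566010 counts higher in TC (exact permutation test, two-sided, p = 0.0635), and 2100340 higher without TC8, the shallowest library (exact permutation test, p = 0.0159, the smallest that 5 fish against 4 allow). Leaving out any other single TC or TQ fish gave p = 0.0794 to 0.127 by the same exact permutation test. The TMM factors did not overlap, at 0.75 to 1.01 in TC and 1.02 to 1.44 in TQ. When total counts served as library sizes instead, the median log2FC over the names shifted by -0.38, and 1 name was called higher and 26 lower. The directions below are therefore relative to the bulk of the miRNAs, and arm ratios, which need no scaling, are given separately. In bulk muscle, fewer cells of a type cannot be told apart from less RNA per cell.

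The label of muscle was checked against marker miRNAs of striated muscle, which do not test whether the muscle was fast. The slow muscle miRNA miR-499-5p was also present in every fish and is described below. miR-1 was present at 465 to 1111 CPM and miR-206-3p at 105 to 456 CPM in every fish, while miR-133a-3p and miR-133b-3p were listed at 0 in all. Their places on the precursors overlap each other, and of the 160 names at 0 in all 10 fish, 58 had such an overlap with another name. The same holds for miR-126a-3p and miR-126b-3p, the markers of endothelium, so that absence from the tissue and loss by this overlap cannot be told apart. The most abundant names, miR-199-5p, miR-100-5p and miR-99, were not past the test (log2FC 0.34, 0.58 and 0.39, edgeR adjusted p = 0.166, 0.191 and 0.451). The tested striated muscle names summed to 750 to 1427 CPM in TC and 604 to 806 in TQ. The connective tissue list, miR-199 and miR-214, summed to 169827 to 198246 CPM in TC and 123670 to 169466 in TQ. The check thus shows that muscle markers were present, not that they made up most of the counts.

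A total of 11 names were higher in TC (7.38% of the 149 names) and 12 were lower (8.05%) by the quasi-likelihood test of edgeR over the 196 loci. The thresholds were 0.75 for the size of the log2FC and 0.05 for the adjusted p. Counted as loci, 15 were higher (7.65%) and 13 lower (6.63%). The median log2FC over all names was -0.01, and 60 names (40.3%) had an unadjusted p under 0.05. DESeq2 called 16 higher (10.7%) and 13 lower (8.72%), and all 23 names called by edgeR were among them. All 5 TC fish lay above all 5 TQ fish for 12 of the 149 names (8.05%) and below them for 17 (11.4%). Among the called names this was so for 4 of the 11 higher and 8 of the 12 lower. The counts of calls rested on single fish to some extent. The number higher was 7 without TQ2, 7 without TQ3 and 6 without TQ8, and otherwise 8 to 16, and the number lower stayed between 8 and 14.

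miR-499-5p, from the intron of a slow myosin gene in mammals, had the largest difference among the called names. Its level was 744, 497, 717, 281 and 613 CPM in the TC fish and 60.4, 167, 354, 66.5 and 135 CPM in the TQ fish. TC6 lay below TQ3, and the other 4 TC fish lay above every TQ fish. The mean level was 3.64 times higher in TC, with a log2FC of 1.86 (SE 0.42, edgeR adjusted p = 0.00763). It was the 1 name called under each of the 14 alternatives for scaling, filter, test and samples and with each of the 15 fish left out in turn. The opposite arm, miR-499-3p, followed the same fish, with 42.8, 23.4, 35.5, 15.7 and 28.8 CPM in TC and 3.22, 10.8, 24.8, 3.60 and 6.82 CPM in TQ. Here too TC6 was the lowest TC fish and TQ3 the highest TQ fish, and the groups overlapped. Its log2FC was 1.56 (SE 0.43, edgeR adjusted p = 0.0150), and the ratio of the arms was 4.28 ± 0.14 in TC and 4.07 ± 0.18 in TQ on the log2 scale (SD, n = 5, exact permutation test, two-sided, adjusted p = 0.110). The slow muscle list held these 2 names alone, both arms of 1 precursor, so that they count as 1 observation beside the 7.38% of all names called higher.

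The other muscle miRNAs gave smaller differences. miR-1 was at 629, 1021, 912, 1111 and 969 CPM in TC and at 613, 649, 618, 676 and 465 CPM in TQ. TC3 lay within the TQ range and the other 4 TC fish above it. The log2FC of 0.62 (SE 0.16, edgeR adjusted p = 0.0117) was under the minimum of 0.75, so that miR-1 was past the adjusted p but not called. In the other copy of miR-1 the groups did not overlap, with TC3 at 711 CPM and the highest TQ fish at 647 CPM. That copy had the same log2FC of 0.62 (edgeR adjusted p = 0.0115). miR-206-3p, which has the seed of miR-1, had 118, 132, 137, 250 and 456 CPM in TC and 105, 133, 123, 127 and 134 CPM in TQ. TC6 and TC8 stood far above all TQ fish and TC5 just above them, while TC3 and TC4 lay inside the TQ range. This copy was not past the test (log2FC 0.81, SE 0.30, edgeR adjusted p = 0.0562), its second copy was (1.11, SE 0.35, adjusted p = 0.0314), and the sum of both copies was also called (0.82, adjusted p = 0.0403). The call also appeared without PC4, TC3, TC4 or TC5 (0.82 to 0.97, edgeR adjusted p = 0.0310 to 0.0467), and without TC8 the log2FC was 0.35 (adjusted p = 0.230). PC denotes the 5 pacu, which shared the fit and its estimate of spread. miR-133c-5p had a log2FC of -0.63 (edgeR adjusted p = 0.186).

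**Figure D1:**
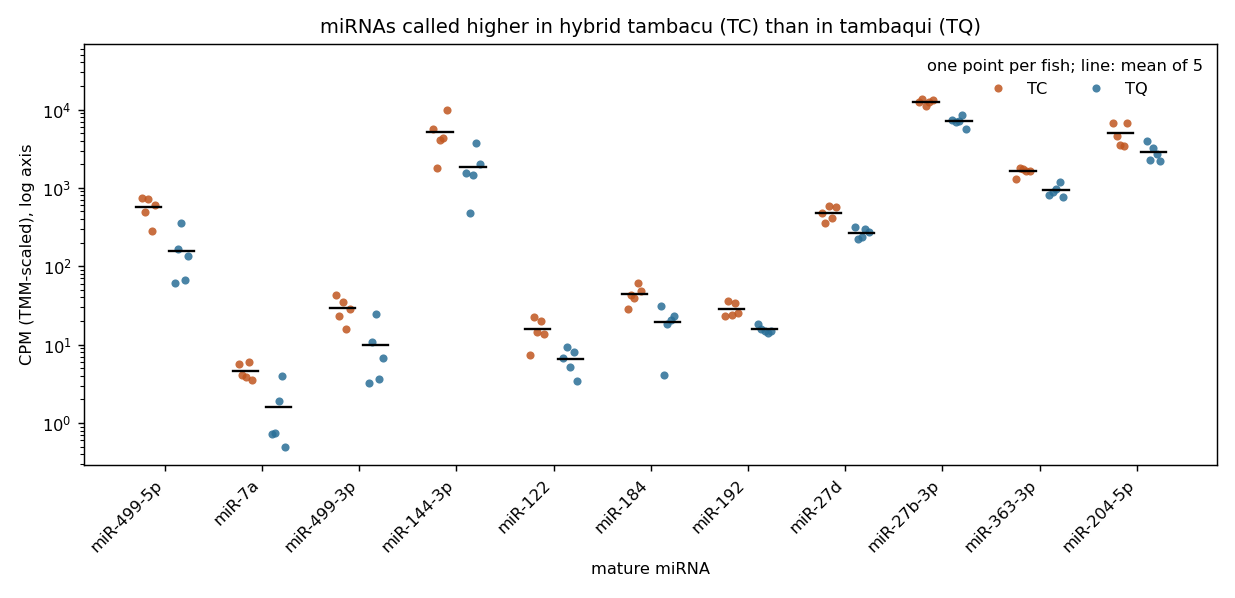
Level of the 11 miRNAs called higher in TC, in CPM on a log axis, with 1 point per fish and a line at the mean of 5 fish. The groups do not overlap for miR-192, miR-27d, miR-27b-3p and miR-363-3p, and overlap through 1 or more fish for the other names, such as TC6 and TQ3 in miR-499-5p.

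The miR-27 family, which in mice acts on the muscle progenitor factor Pax3, was the seed group with the most names higher in TC. miR-27b-3p had 12408, 13706, 11095, 12424 and 13336 CPM in TC and 7262, 6993, 7192, 8410 and 5618 CPM in TQ. Every TC fish was above every TQ fish, the mean was 1.77 times higher, and the log2FC was 0.83 (SE 0.18, edgeR adjusted p = 0.00677). Without TQ8 the log2FC was 0.74, under the minimum (adjusted p = 0.0204). miR-27d was at 474, 357, 582, 413 and 578 CPM in TC and 316, 220, 233, 301 and 271 CPM in TQ. The groups were again separate, with a log2FC of 0.84 (SE 0.16, edgeR adjusted p = 0.00324), called with every fish left out. miR-27c-3p was at 5700 to 8135 CPM in TC and 4127 to 5677 in TQ, separate but with a smaller log2FC of 0.42 (edgeR adjusted p = 0.0358). miR-27a-3p and miR-27e had log2FC values of 0.26 and 0.24 and were not past the test (edgeR adjusted p = 0.574 and 0.303). The median over the 5 names was 0.42. With total counts as library sizes the values of miR-27a-3p and miR-27e turned to -0.13 and -0.16. Under that scaling miR-27b-3p and miR-27d were each at 0.47 and not called (edgeR adjusted p = 0.0539 and 0.140). Scaled to the reads that passed the size filter, they had 0.76 and 0.77 and were not called either (edgeR adjusted p = 0.201 and 0.237). At a minimum mean count of 100, miR-27b-3p had 0.748, just under the log2FC minimum. Because these sequences differ in a few bases, reads of one may have been counted for another. The names miR-23a-3p and miR-24, which in vertebrates share clusters with miR-27, were listed at 0. The places of miR-23a-3p overlap those of miR-23b, also at 0, so that its absence and loss by this overlap cannot be told apart. For miR-24 no such overlap was seen among the names with a place in the annotation.

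miR-363-3p is encoded in mammals in a cluster related to miR-17-92. It was at 1299, 1796, 1721, 1662 and 1647 CPM in TC and 822, 895, 972, 1185 and 763 CPM in TQ. No TQ fish reached the lowest TC fish. The log2FC was 0.81 (SE 0.16, edgeR adjusted p = 0.00445), and 0.73 without TQ8 (adjusted p = 0.0190), under the minimum. The 3 other names with its seed had log2FC values near 0 and did not pass the test: 0.06 for miR-25-3p, -0.08 for miR-92a-3p and -0.18 for miR-92b-3p (edgeR adjusted p = 0.804, 0.612 and 0.340).

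Several of the higher names are known as markers of other cell types. miR-144-3p is made in red blood cells from the same transcript as miR-451. It reached 5593, 1806, 4118, 4380 and 9809 CPM in TC and 1539, 485, 1462, 3761 and 1995 CPM in TQ. TC4 lay below TQ6 and TQ8, and the other TC fish lay above all TQ fish. Its log2FC was 1.48 (SE 0.46, edgeR adjusted p = 0.0292), and the call was lost without TC8, TQ1, TQ2 or TQ3 (1.10 to 1.42, adjusted p = 0.0506 to 0.0824). miR-451, the other tested erythroid name, was at 1623 to 4777 CPM in TC and 803 to 5654 in TQ, with a log2FC of -0.20 (SE 0.46, edgeR adjusted p = 0.790). The summed level of both ranged from 3758 to 14586 CPM in TC and from 1288 to 9224 in TQ, and its part in the result was not tested.

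miR-122, the main miRNA of the liver, was scarce, at 7.46, 22.8, 14.5, 20.2 and 13.8 CPM in TC and 6.79, 9.45, 5.16, 8.01 and 3.41 CPM in TQ. TC3 lay within the TQ range and the other TC fish above it. The log2FC was 1.26 (SE 0.33, edgeR adjusted p = 0.0143). miR-192, enriched in intestinal and liver epithelium, was at 23.4, 35.6, 24.0, 33.6 and 25.3 CPM in TC and 18.2, 16.1, 14.8, 14.0 and 15.1 CPM in TQ. These groups did not overlap, and the log2FC was 0.86 (SE 0.22, edgeR adjusted p = 0.0125). Both calls held with every fish left out, but not under 2 other scalings. With total counts as library sizes the values were 0.91 and 0.48 (edgeR adjusted p = 0.0809 and 0.183). Scaled to the reads that passed the size filter, they were 1.26 and 0.83 (edgeR adjusted p = 0.200 and 0.237). Of the other lists of this kind, none of the 4 pancreas names was past the test (log2FC -0.20 to 0.60, summed level 30.5 to 52.2 CPM in TC and 28.8 to 40.8 in TQ), nor was either epidermal name (miR-203a-3p -0.17, miR-205-5p -0.56), nor any of the 4 neural names (-0.25 to 0.87).

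The remaining higher names were less firm when single fish were left out. miR-184, known from the lens and cornea, was at 28.3, 42.9, 39.9, 61.4 and 47.9 CPM in TC and 30.7, 4.16, 18.4, 20.8 and 23.2 CPM in TQ. TQ1 lay above TC3, and TQ2 was far below the other TQ fish. The log2FC of 1.19 (SE 0.41, edgeR adjusted p = 0.0383) lost its call without TC5, TC6, TC8, TQ2, TQ3, TQ6 or TQ8 (0.92 to 1.25, adjusted p = 0.0554 to 0.0891). miR-204-5p, known from the eye and in mammals from an intron of Trpm3, was at 6726, 4540, 3480, 3439 and 6825 CPM in TC and 4019, 2252, 3262, 2706 and 2180 CPM in TQ. TC5 and TC6 lay below TQ1. Its log2FC of 0.79 (SE 0.26, edgeR adjusted p = 0.0339) lost its call without TC3, TC8, TQ2, TQ3, TQ6 or TQ8 (0.66 to 0.84, adjusted p = 0.0509 to 0.0862).

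miR-7a showed what a single copy can do. The copy with the highest total was at 3.55 to 6.03 CPM in TC and 0.487 to 4.0 CPM in TQ, with a log2FC of 1.69 (SE 0.60, edgeR adjusted p = 0.0437). The other 2 copies had identical counts, at 1.24 to 3.15 CPM in TC and 0.975 to 6.41 in TQ, and a log2FC of -0.38 (edgeR adjusted p = 0.584). With the copies summed the log2FC was 0.22 (edgeR adjusted p = 0.740). The call was lost without any one of TC3, TC4, TC5, TC6, TC8, TQ1, TQ2, TQ3 or TQ8 (1.42 to 1.81, adjusted p = 0.0518 to 0.115). miR-7a is counted among the 11 higher names by its highest copy, and would not be by the sum of its copies.

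Among the lower names, 4 belong to the seed groups of the miR-17-92 cluster, a polycistron known in mammals for driving cell proliferation. Of 13 tested names of these families 4 were called lower and 1, miR-363-3p, higher, beside 12 (8.05%) and 11 (7.38%) of all 149 names. Of the 13 names 11 had a log2FC below 0, with a median of -0.32, beside 76 of the 149 names and a median of -0.01. miR-19d-3p had 34.8, 51.5, 46.5, 26.8 and 48.8 CPM in TC and 64.3, 63.5, 88.7, 111 and 95.1 CPM in TQ. Every TC fish was below every TQ fish, with a log2FC of -1.02 (SE 0.23, edgeR adjusted p = 0.00773) that was called with every fish left out. miR-19a-3p, with the same seed, was at 81.5, 73.4, 88.3, 60.9 and 88.3 CPM in TC and 120, 133, 197, 163 and 70.9 CPM in TQ. TQ8 fell inside the TC range, and the other TQ fish lay above it. The log2FC was -0.80 (SE 0.21, edgeR adjusted p = 0.0143), and between -0.74 and -0.64, under the minimum in size, without TC4, TC6, TQ3 or TQ6. miR-19b-3p and miR-19c-3p, whose places overlap, were listed at 0.

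miR-17a-5p was at 96.2, 119, 112, 121 and 143 CPM in TC and 189, 220, 218, 171 and 222 CPM in TQ. The groups did not overlap, and the log2FC was -0.79 (SE 0.21, edgeR adjusted p = 0.0145), or -0.72 without TC3 (adjusted p = 0.0392), under the minimum in size. The other names with its seed had values of -0.52 (miR-20b-5p, no overlap), -0.32 (miR-93) and -0.28 (miR-20a-5p), with edgeR adjusted p = 0.136, 0.123 and 0.309. miR-18a was at 11.9, 9.23, 12.4, 9.18 and 14.6 CPM in TC and 24.0, 22.9, 22.2, 19.2 and 15.1 CPM in TQ. TQ8, the lowest TQ fish, stood just above TC8, the highest TC fish. Its log2FC was -0.86 (SE 0.26, edgeR adjusted p = 0.0290), and the call was lost without TC4, TC6, TQ1, TQ2 or TQ3 (-0.83 to -0.75, adjusted p = 0.0514 to 0.0613). miR-18c, with the seed of miR-18a, had -0.19 (edgeR adjusted p = 0.410).

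**Figure D2:**
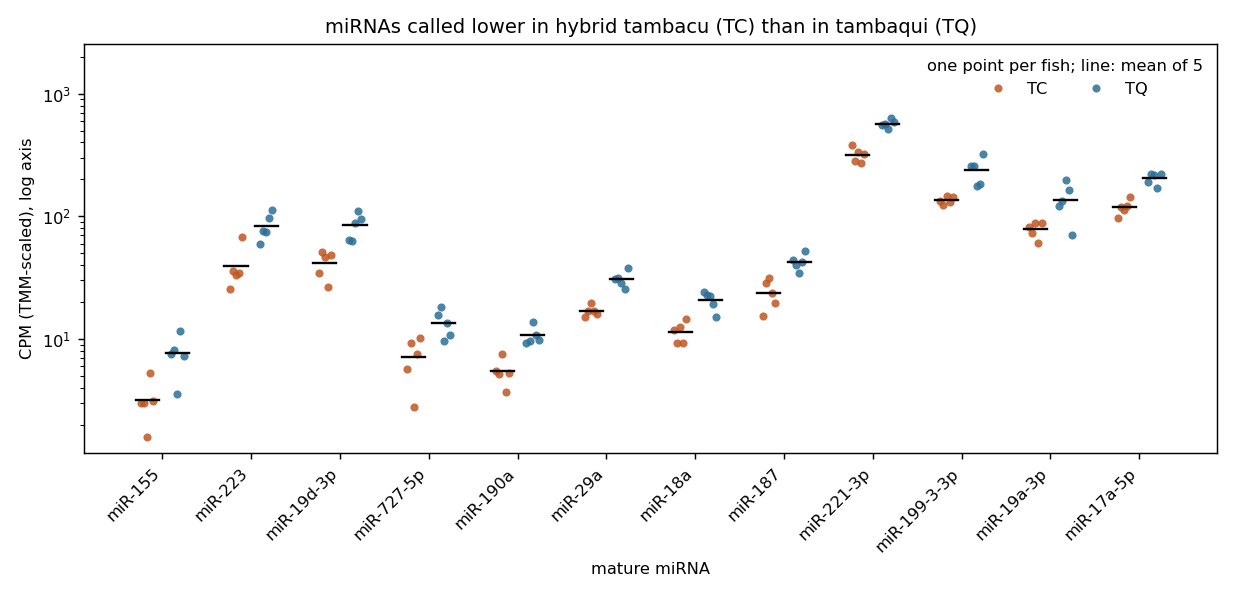
Level of the 12 miRNAs called lower in TC, in CPM on a log axis, with 1 point per fish and a line at the mean of 5 fish. All TC fish lie below all TQ fish for 8 names, and miR-155, miR-223, miR-727-5p and miR-19a-3p overlap.

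miR-221-3p had the smallest adjusted p of the comparison. In mouse myoblasts miR-221 and miR-222 decline as the cells leave the cell cycle, and both repress the cell cycle inhibitor p27. The level of miR-221-3p was 380, 280, 332, 273 and 320 CPM in TC and 551, 568, 511, 628 and 590 CPM in TQ. The groups were far apart relative to their spread, 317 ± 43.3 CPM in TC and 570 ± 43.8 in TQ (SD, n = 5), and the mean was 1.80 times higher in TQ. The log2FC was -0.84 (SE 0.12, edgeR adjusted p = 0.000664), called with every fish left out. miR-222a-3p, with the same seed, was at 359, 349, 357, 357 and 391 CPM in TC and 485, 624, 519, 529 and 659 CPM in TQ. It did not overlap either, and its log2FC of -0.64 (SE 0.16, edgeR adjusted p = 0.0116) was under the minimum in size. The 5p arms of both precursors had values of the other sign, 0.49 and 0.32, and were not past the test (edgeR adjusted p = 0.194 and 0.157).

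Leukocyte miRNAs did not move as one. miR-155, induced in activated lymphocytes and macrophages, was at 2.98, 3.01, 1.57, 5.25 and 3.11 CPM in TC and 7.51, 8.12, 3.55, 11.6 and 7.31 CPM in TQ. TQ3 lay below TC6, and the other TQ fish lay above all TC fish. The log2FC was -1.27 (SE 0.35, edgeR adjusted p = 0.0150). miR-223, known from neutrophils and other myeloid cells, was at 25.6, 35.6, 33.2, 34.4 and 67.4 CPM in TC and 59.7, 75.4, 74.8, 96.1 and 112 CPM in TQ. TC8 was alone in reaching the TQ range. The log2FC was -1.10 (SE 0.27, edgeR adjusted p = 0.0116), and both calls held with every fish left out.

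The leukocyte list had 7 tested names, and miR-155 and miR-223 were the 2 called lower, beside 12 of all 149 names (8.05%). miR-142a-3p, made in all blood cell lineages, was at 33.7 to 55.0 CPM in TC and 59.7 to 102 in TQ. Its log2FC was -0.71 (edgeR adjusted p = 0.0244), and it was called without TC8, TQ1, TQ2 or TQ8 (-0.81 to -0.76). The other arm, miR-142a-5p, was more abundant, at 468 to 666 CPM in TC and 359 to 605 in TQ. It was not past the test (log2FC 0.14, edgeR adjusted p = 0.488). Neither were miR-150 and miR-146b (log2FC -0.17 and 0.55, edgeR adjusted p = 0.464 and 0.223). miR-146a, a feedback inhibitor of innate immune signalling in mammals, had 6099, 4566, 5054, 6981 and 12792 CPM in TC and 3391, 5174, 4500, 4492 and 2041 CPM in TQ. TC4 and TC5 lay below TQ2 and TC8 stood high, and its log2FC of 0.86 was not past the test (edgeR adjusted p = 0.0616). It was called without PC4, PC5, PC8 or TC4 (0.84 to 1.01, edgeR adjusted p = 0.0315 to 0.0446), and without TC8 the log2FC was 0.53 (adjusted p = 0.205). The median of the list was -0.17, and its summed level, most of it miR-146a, was 5623 to 14374 CPM in TC and 2998 to 6340 in TQ.

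miR-29a, which in mammals represses collagen and other matrix transcripts, was at 15.2, 17, 19.6, 17.1 and 16.0 CPM in TC and 30.7, 31.5, 28.4, 25.6 and 37.8 CPM in TQ. No fish of one group entered the range of the other, and the log2FC of -0.86 (SE 0.23, edgeR adjusted p = 0.0145) was called with every fish left out. miR-29b was listed at 0. miR-199-3-3p, one of the mature sequences of the miR-199 family known from mesenchymal cells, was at 133, 123, 146, 130 and 143 CPM in TC and 256, 255, 177, 183 and 324 CPM in TQ. All TC fish were lower and close together, with a log2FC of -0.82 (SE 0.18, edgeR adjusted p = 0.00763), or -0.70 without TQ8 (adjusted p = 0.0190), under the minimum in size. miR-199-3p, a far more abundant and nearly identical sequence, had a log2FC of -0.06 (edgeR adjusted p = 0.807), so that reads shared between them leave the value of miR-199-3-3p uncertain.

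The last 3 called names were at low levels. miR-187 was at 15.4 to 31.1 CPM in TC and 34.5 to 52.4 in TQ, without overlap, with a log2FC of -0.85 (SE 0.23, edgeR adjusted p = 0.0150), or -0.73 without TC3, under the minimum in size. miR-190a, in mammals from an intron of talin 2, was at 3.67 to 7.52 CPM in TC and 9.29 to 13.9 in TQ, also without overlap. Its log2FC was -0.95 (SE 0.31, edgeR adjusted p = 0.0329), and the call was lost without TC3, TC4, TC6, TC8, TQ2, TQ3 or TQ6 (-0.99 to -0.84, adjusted p = 0.0519 to 0.0778). miR-727-5p had 5.72, 9.23, 2.80, 7.61 and 10.2 CPM in TC and 15.7, 18.3, 9.67, 13.6 and 10.7 CPM in TQ. TQ3 lay below TC8, and the log2FC of -0.97 (SE 0.31, edgeR adjusted p = 0.0315) lost its call without TC3, TC5, TQ1 or TQ2 (-0.92 to -0.75, adjusted p = 0.0563 to 0.0796).

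A further 21 names were past the adjusted p but under the log2FC minimum. Without that minimum 22 names were higher (14.8%) and 22 lower (14.8%). let-7g, of the let-7 family that marks differentiated cells, had the smallest adjusted p of these names. Its level was 10572, 9606, 8092, 10529 and 9648 CPM in TC and 5524, 5854, 6516, 6616 and 5837 CPM in TQ. The groups did not overlap, with a log2FC of 0.67 (SE 0.11, edgeR adjusted p = 0.00118). let-7f was also separate, at 2298 to 3021 CPM in TC and 1592 to 2189 in TQ (log2FC 0.53, edgeR adjusted p = 0.00773). The other 8 of the 10 tested let-7 names, all with one seed, had log2FC values from -0.24 to 0.23 and did not pass, and the median of the family was 0.02, or -0.37 with total counts as library sizes. For let-7a the value depended on the copy. The copy with the highest total had -0.05, and the other had 0.42, also not past the test (edgeR adjusted p = 0.135).

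Members of one seed group also lay on opposite sides. miR-30d, at 5766 to 10430 CPM in TC and 3728 to 5985 in TQ, had a log2FC of 0.65 (edgeR adjusted p = 0.0315), while miR-30b, at 1061 to 1477 CPM in TC and 1641 to 2129 in TQ, had -0.54 (adjusted p = 0.0125) with no overlap. Their seed mates miR-30e-5p and miR-30c-5p had 0.37 and -0.32 (edgeR adjusted p = 0.163 and 0.0706). miR-143, known from smooth muscle, was at 4966 to 6438 CPM in TC and 3169 to 4092 in TQ, without overlap (log2FC 0.64, edgeR adjusted p = 0.00324). miR-145-5p and miR-145-3p, from the same cluster, had -0.46 and 0.38 and were not past the test (edgeR adjusted p = 0.0763 and 0.451). All 6 tested names of the miR-130, miR-301 and miR-454 families had values below 0 (-0.54 to -0.09, median -0.35), beside 76 of all 149 names. The 6 were also below 0 under each other scaling. The share over all names was then 111 of 149 with total counts as library sizes and 75 to 85 of 149 otherwise. Past the adjusted p was miR-130c-5p alone (0.0355 by edgeR), 1 of 6 beside 22 of the 149 names lower (14.8%).

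**Figure D3:**
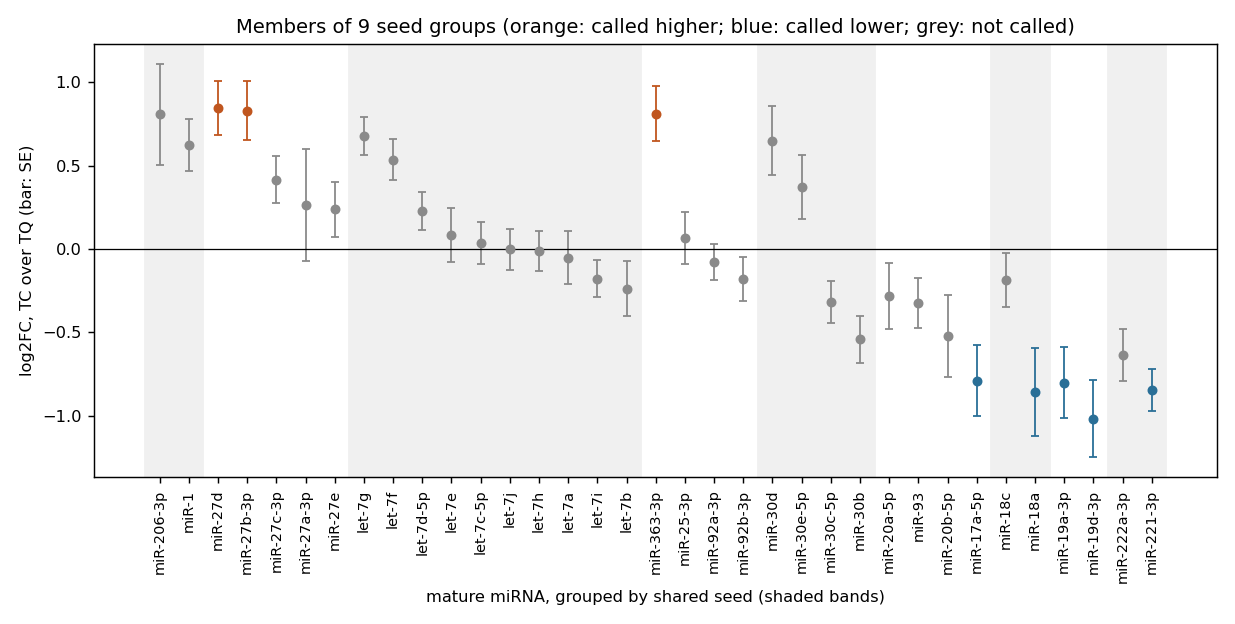
log2FC of TC over TQ with its SE for the members of 9 seed groups, each point 1 mature name. Within the miR-27 group all 5 values are above 0 (3 of 5 with total counts as library sizes) and 2 are called higher, both miR-19 names are called lower, and the let-7 and miR-30 groups have values on both sides of 0.

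The difference between TC and TQ was not even across levels. Of the 37 names with a mean of at least 1000 CPM, 25 had a log2FC above 0, with a median of 0.23, and 4 were called higher and 0 lower by edgeR (6 and 0 by DESeq2, 13 and 3 at an unadjusted p under 0.05). At an adjusted p of at most 0.05 alone, 10 of these names were higher and 1, miR-30b, lower. For the 46 names from 100 to under 1000 CPM the median was -0.14, for the 45 names from 10 to under 100 CPM it was -0.15, and for the 21 names under 10 CPM it was -0.20. The part of depth and of the TMM factors, which also differed between the groups, was not tested.

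**Figure D4:**
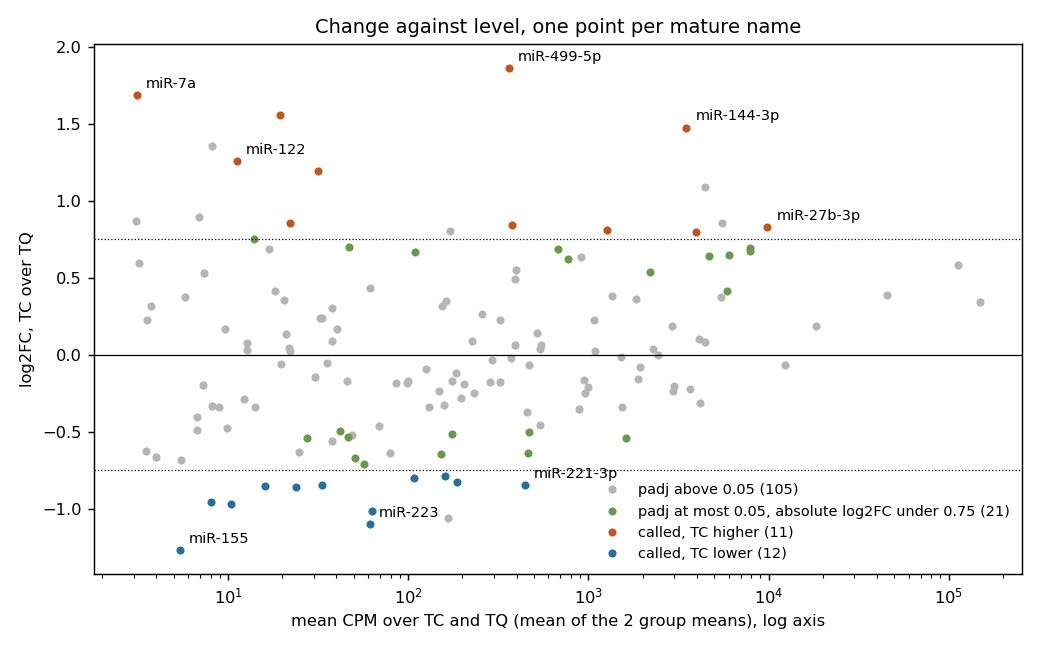
log2FC of TC over TQ against the mean level of the 149 mature names in CPM on a log axis, with dotted lines at the log2FC minimum of 0.75 on each side of 0. All called names above 1000 CPM are higher in TC, among them miR-144-3p and miR-27b-3p, and the called lower names lie under that level.

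Arm ratios compare both strands of one precursor within a fish and do not depend on the scaling of the library. Of 23 ratios of 5p to 3p counts, 9 were higher in TC (39.1%) and 5 lower (21.7%) at an adjusted p of at most 0.05 (exact permutation test, two-sided, adjusted over the 23 ratios). For 13 of these 14 ratios the TC and TQ fish did not overlap, which gave p = 0.00794, the smallest that 5 fish against 5 allow, and an adjusted exact p of 0.0140.

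The largest shift was in the miR-221 precursor. The log2 ratio of miR-221-5p to miR-221-3p was 0.74, 0.64, 0.14, 0.83 and 0.22 in the TC fish and -0.82, -0.96, -0.28, -0.52 and -1.73 in the TQ fish. The 5p arm was thus the more abundant counted strand in every TC fish and the 3p arm in every TQ fish, a difference of 1.38. The reference miR-221-5p has 26 bases, the longest read kept, so that longer forms of it were not counted. The part of this limit was not tested. The neighbouring miR-222a precursor shifted toward the 5p arm as well, by 0.94, with the 3p arm more abundant in both groups. The arms of miR-727 shifted the other way. Their log2 ratio was -0.89, -0.38, -1.40, -1.39 and -0.47 in TC and 0.55, 0.00, 0.15, -0.04 and 0.00 in TQ, so that the 3p arm led in every TC fish and the arms were close to even in TQ.

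In the miR-140 precursor, which in vertebrates is best known from cartilage, the arms moved apart. The log2 ratio of miR-140-5p to miR-140-3p was -1.86, -3.34, -3.21, -3.17 and -2.44 in TC and -1.61, -1.64, -1.26, -1.26 and -1.81 in TQ, a difference of -1.29. TC3 stood just below TQ8, and TC4, TC5 and TC6 were far below all TQ fish. The 3p arm was past the adjusted p on its own (log2FC 0.67, edgeR adjusted p = 0.0125, 91.5 to 152 CPM in TC and 80.4 to 90.1 in TQ), and was called without TC3 (0.78). The 5p arm had -0.63 (edgeR adjusted p = 0.0509).

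The other ratios that differed concerned miR-2188 (difference 1.14), miR-199-5p over miR-199-3-3p (1.14), miR-100 (1.12), miR-10c (0.99), miR-142a (0.85), miR-1388 (0.85) and miR-30e (0.45), all toward the 5p arm in TC, and miR-27b (-0.82), miR-22a (-0.73) and miR-145 (-0.74), toward the 3p arm. For miR-199 and miR-100 the 5p count includes reads from further precursors with the same 5p sequence. For miR-142a the 3p sequence also lies on a further precursor, that of miR-142b. The ratio over miR-199-3-3p is also uncertain through reads shared with miR-199-3p. Over miR-199-3p, the far more abundant name, the ratio of miR-199-5p had a difference of 0.41. Its groups overlapped, and it was not past the test (adjusted exact p = 0.172). The ratio of miR-145 overlapped between the groups (adjusted exact p = 0.0391) and passed without TC5 (-0.91) but not without any other of the 10 fish (-0.81 to -0.59, adjusted p up to 0.0782).

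In 11 of the 14 ratios that differed, the arm that was more abundant in both groups had gained relative to the other arm in TC. The 3 exceptions were miR-222a, where it lost, and miR-221 and miR-727, where the mean ratio was on the other side of 0 in TC, from near 0 in TQ for miR-727. Over all 23 ratios the more abundant arm had a higher share in TC in 18, a lower one in 3, and the mean ratio changed sign in 2. For miR-27b this was the 3p arm, which was called higher (0.83) while miR-27b-5p was not past the test (log2FC 0.03, edgeR adjusted p = 0.916). For miR-10c it was the 5p arm, with a log2FC of 0.70 (edgeR adjusted p = 0.0292, and 0.88, a call, without TQ6) against -0.29 for miR-10c-3p (adjusted p = 0.396). The 5p arm of miR-100 had 0.58 and was not past the test, and its 3p arm had -0.54 and was (edgeR adjusted p = 0.0383).

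**Figure D5:**
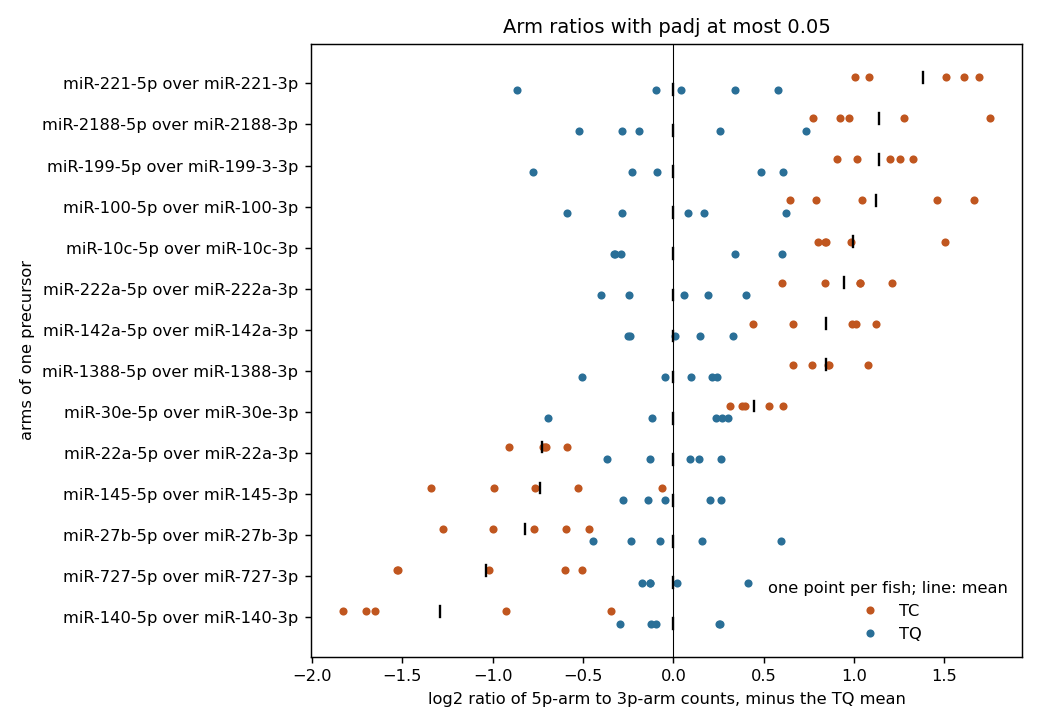
log2 ratio of 5p-arm to 3p-arm counts minus the TQ mean for the 14 ratios that differed, with 1 point per fish and a line at the group mean. TC fish lie to the right of TQ fish in 9 ratios and to the left in 5, and the groups overlap for miR-145 alone.

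Copies of one mature name mostly carried the same counts. Of 34 names with several tested copies, the counts were identical in all fish for 10, and 27 had totals within 5% of each other. The copies of miR-7a and miR-206-3p gave different calls, as described above. The 3 copies of miR-204-5p were each called higher (0.79 to 0.80), and their sum was not (0.74, edgeR adjusted p = 0.0311, under the minimum). Further, both copies of miR-17a-5p were called lower, as were both of miR-184 called higher.

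Sequences were at hand for 144 of the 149 names and for all 23 called names. T was the first base in 8 of the 11 higher names and 9 of the 12 lower names, beside 79 of the 144. The median GC content was 40.9% in the higher names, 43.2% in the lower names and 45.5% over all. In TQ the median level of the higher names was 157 CPM, close to the 162 CPM over all names, and that of the lower names was 63.1 CPM.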

How the data were processed

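The authors clipped adapters with Fastx-toolkit, removed reads under 17 and over 26 nt, and used Hisat2 at default settings on Danio rerio precursors (miRBase 22) and featureCounts on mature sequences placed by GMAP. For both tools the version, and how featureCounts treated reads with several places, is not given in the sources used here. Per locus, the authors deposited raw counts and a normalized signal, the raw count divided by 1 DESeq2 size factor per fish. The deposited signal served only for the minimum mean of 10, and the deposited counts were tested. Differences between these species and the zebrafish reference may lower counts, which was not tested. Of the loci tested, 14 had no place in the annotation used and no sequence is shown for them.

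The counts of all 15 fish were fitted in edgeR 4.0.16 (R 4.3.3, limma 3.58.1) with TMM scaling and its quasi-likelihood test, and TC vs. TQ was adjusted by Benjamini-Hochberg over 196 loci. The study's thresholds were used (absolute log2FC of at least 0.75, adjusted p of at most 0.05), and each mature name was read from its copy with the highest total. Adjusted p-values after a log2FC are from edgeR unless another test is named. Pairs of fish within a group had a chi-square of at least 93.2 per degree of freedom, more than counting error alone gives. Each fish was treated as 1 replicate, and this value does not test whether the fish were independent. The biological coefficient of variation was 0.279. For scarce names such as miR-155, at 7 to 43 counts per fish, counting error adds to it. Arm ratios (0.5 added to each count) and total counts went into two-sided exact permutation tests, with 252 arrangements of 5 fish against 5. The edgeR and DESeq2 tests were tried first on simulated counts with changes well over the log2FC minimum. That trial does not cover changes near the minimum, nor the permutation tests. Alternatives were other scalings (DESeq2 size factors, total counts, reads left after the size filter, TMM without miR-199-5p and miR-100-5p), other minimum counts, DESeq2 1.42.0 with and without a log2FC prior, only TC and TQ fish, highest copies only, copies summed, the fish number as a block, other log2FC minimums, and each fish left out in turn. Tables and plots were made in Python 3.11.15 (matplotlib 3.10.9, scipy 1.17.1, numpy 2.4.6, pandas 2.3.3).

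The names described are those called, with their other arms, copies and seed mates, members of lists of cell type markers and families, names called by one of edgeR and DESeq2, and the 3 most abundant. The comparison, the lists and this rule were chosen with earlier results of these data known.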

Additional observations from a re-analysis of the deposited data

Results flagged for a closer look

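In groups of 5 fish, 2 of the 76 sets of values checked had 1 fish far from the other 4, and chance alone gives about 1 in 20. For miR-223, TC8 was at 67.4 CPM while the other TC fish were at 25.6 to 35.6 CPM. For the log2 ratio of miR-10c-5p to miR-10c-3p, TC4 was at 10.3 while the other TC fish were at 9.58 to 9.76.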

How the results depend on the processing

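None of the 23 called names changed direction under any alternative, and none of the 14 arm ratios that differed did. Over all 149 names, 35 changed sign with total counts as library sizes and 0 to 11 of the names tested did under each other alternative. With total counts as library sizes, 1 name was called higher and 26 lower, and 3 and 37 names did not overlap. Scaled to the reads that passed the size filter, edgeR called 1 name higher (miR-499-5p) and 0 lower, with 14 and 15 at an unadjusted p under 0.05, and 1 and 7 names did not overlap. A minimum mean count of 100 gave 4 higher. Without a log2FC minimum there were 22 higher and 22 lower, and with a minimum of 1 there were 6 and 3. Leaving out 1 fish gave 6 to 16 higher and 8 to 14 lower, 13 to 16 arm ratios past the threshold, and a difference in total count of 1288780 to 2100340. With the highest copy of each name alone the total count was 748293 higher in TC (exact permutation test, p = 0.0397). The other alternatives kept both counts within 1.5 times of 11 and 12. Of the 23 called names, 10 were called with every fish left out.

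The labels share the fish numbers 3, 6 and 8 between TC and TQ. The deviations of these pairs from their group means correlated at 0.33, 0.11 and -0.13 over the names. Pairs with unlike numbers ranged from -0.38 to 0.34. With 3 shared numbers these values cannot decide whether the numbers pair the fish. With the fish number as a replicate block, 14 names were higher and 8 lower, and 18 were shared with the 23 called without it.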

Other observations

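DESeq2 called 6 names that edgeR did not, namely miR-10a-5p, miR-146a, miR-182-5p, miR-206-3p, miR-212-5p and miR-2188-3p. miR-10a-5p was at 3022 to 9285 CPM in TC and 2018 to 4099 in TQ, with a log2FC of 1.09 (edgeR adjusted p = 0.0853, DESeq2 adjusted p = 0.0388), and edgeR called it without PC4, PC8 or TC4 (1.07 to 1.29). miR-212-5p, made in neurons and other tissues from one transcript with miR-132, was at 7.52 to 11.6 CPM in TC and 3.90 to 5.21 in TQ, without overlap, with a log2FC of 0.89 (edgeR adjusted p = 0.0526, DESeq2 adjusted p = 0.0398), and edgeR called it without PC3, PC4, PC5 or PC8 (0.87 to 0.92). miR-2188-3p was at 78.1 to 150 CPM in TC and 68.6 to 497 in TQ, with a log2FC of -1.06 (edgeR adjusted p = 0.0853, DESeq2 adjusted p = 0.0397), and edgeR called it without TQ2 (-1.29), while without TQ8, at 497 CPM, the log2FC was -0.57 (adjusted p = 0.336). miR-182-5p was at 14.2 to 24.9 CPM in TC and 5.48 to 15.6 in TQ, with a log2FC of 0.75, just under the minimum (edgeR adjusted p = 0.0408), and edgeR called it without PC4, PC5, TC8, TQ1 or TQ6 (0.78 to 0.93).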
